A study of Gallus gallus with 14 samples.

Results

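MEF2 transcription factors and the class IIa histone deacetylases that bind them were followed gene by gene in 14 retinal RNA-seq libraries of wild-type White Leghorn chickens. The names sought were MEF2A, MEF2C, MEF2D, HDAC4, HDAC5 and HDAC9. A row under the symbol was found for 5 of these 6 names among 18631 listed genes, and HDAC5 was not analysed here. MEF2D was taken because it was among the largest rises in 4 of the lens libraries, and the others because they are its paralogs and partners, so the members were chosen by CPM values of those 4 libraries against control. Comparisons of these libraries with control describe the members and do not test them. A split by reads of the W chromosome, which the choice did not use, tests members over all 14 libraries, these 4 included.

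The study asked how the retina answers defocus imposed by a lens. Libraries came from 7 retinas of eyes that wore a lens of -10 dioptres for 1 day, starting at 3 days of age, and from 7 control retinas of the same strain and labelled age (postnatal day 3). The labels leave out the handling of control eyes, the sex of the birds and whether each retina came from another bird. A p-value here measures only how far these samples spread, and that spread may be technical. By the numbers in their titles, the lens libraries are 1 to 4 and 12 to 14, and the controls are 10, 17 to 19 and 21 to 23. The labels do not say what lies behind the numbers 1 to 4, and since all 4 are lens libraries, such a batch and the lens cannot be told apart in them.

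MEF2 proteins bind DNA as dimers and drive genes of muscle and of neurons, often in answer to calcium and activity. In mouse photoreceptors, MEF2D works beside CRX on photoreceptor genes. Class IIa deacetylases (HDAC4, HDAC5, HDAC9, with HDAC7) bind MEF2 proteins and hold their target genes down. Kinases such as those of the CaMK and protein kinase D families phosphorylate these deacetylases, which then bind YWHA adaptor proteins and leave the nucleus, while the phosphatase calcineurin acts on MEF2 itself.

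By the steps between the deposited values (CPM, read counts per 1000000 reads), 1 read was worth 0.0203 to 0.0361 CPM. Each library's total was therefore inferred as 27.7 to 49.3 M reads. The listed genes held 8.63 to 15.3 M of these, or 298678 to 319248 CPM, and the rest lay outside them. All 5 genes passed the filter of a mean of 1 CPM, as did 11005 genes in all. Read numbers behind the single values ran from 382 to 1301 for MEF2D, 2524 to 4485 for MEF2A, 1853 to 4117 for MEF2C, 1667 to 3039 for HDAC4 and 2665 to 4509 for HDAC9. Reads on genes of the female-specific W chromosome split the libraries cleanly, with 604 to 655 CPM in 7 libraries (lens 1, 2, 3 and 13; control 19, 21 and 23) and 1.54 to 3.11 CPM in the other 7. The tissue carried its label: summed cone and rod markers (9 of 10 with a row) reached 809.7 to 1101 CPM in lens and 880.4 to 1112 CPM in control libraries. Muscle, where MEF2 proteins are also abundant, left little trace: 8 of 14 muscle markers had a row, none reached the filter, and their sum was 1.83 to 2.55 CPM in lens and 1.26 to 2.79 CPM in control libraries. Pigment epithelium markers (6 of 6 with a row) summed to 8.03 CPM in lens 4, against 1.67 to 3.49 CPM in the other lens and 2.09 to 3.75 CPM in control libraries. Sclera and fibroblast markers (5 of 5) summed to 4.28 CPM in lens 2, 0.413 to 1.25 CPM in the other lens and 0.506 to 1.02 CPM in control libraries. Their part in the results was not tested.

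MEF2D, on chromosome 25 (2742088 to 2802514, minus strand, GRCg6a), stood high in the libraries numbered 1 to 4 and within the control range in those numbered 12 to 14. It had 29.3, 21.3, 22.2 and 34.6 CPM in lens 1, 2, 3 and 4 and 17.8, 11.9 and 13.9 CPM in lens 12, 13 and 14. In the 7 controls it had a lowest value of 9.50, a median of 16.7 and a highest value of 18.6 CPM. All 4 values of lens 1 to 4 therefore lay above every control, while the 3 later-numbered lens values lay among the controls. The means were 26.8 ± 6.31 CPM in lens 1 to 4 (SD, n = 4), 14.5 ± 3.04 CPM in lens 12 to 14 (SD, n = 3) and 15.6 ± 3.40 CPM in control (SD, n = 7).

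**Figure D1:**
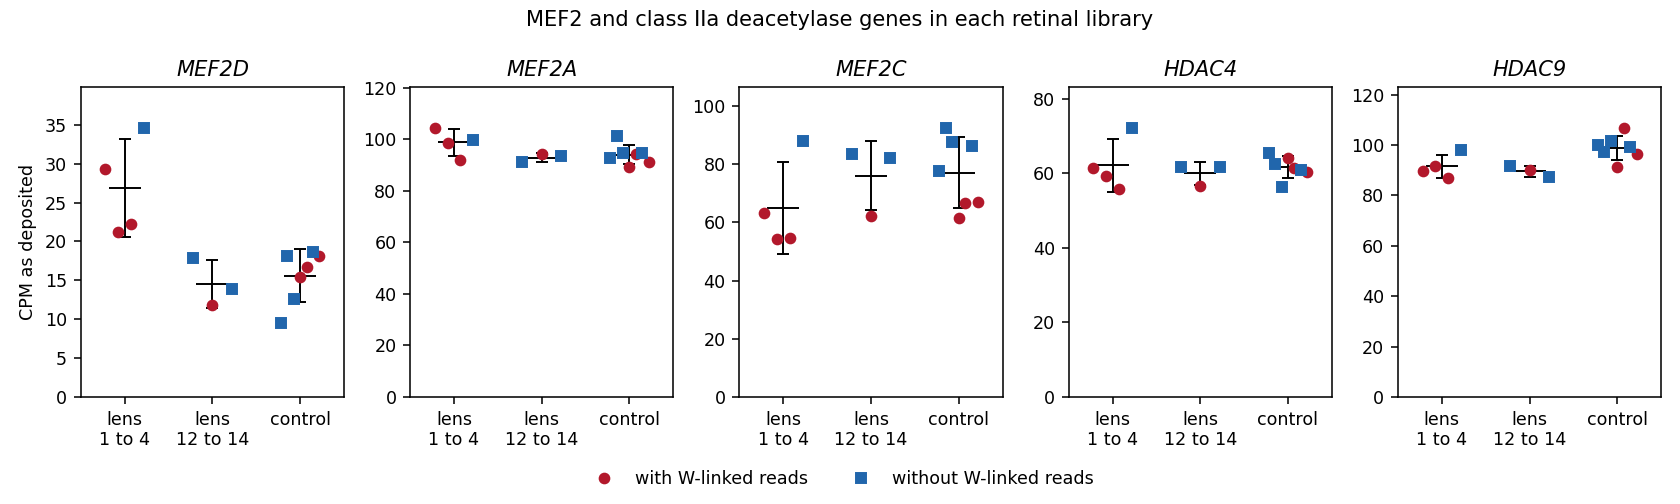
CPM of the 5 genes in each library, for lens 1 to 4, lens 12 to 14 and control from left to right in each panel; red circles are libraries with W-linked reads, blue squares those without, and black bars the mean ± SD. MEF2D lies at 21.3 to 34.6 CPM in lens 1 to 4, above all controls (at most 18.6 CPM). Every MEF2C value with W-linked reads lies below every value without them.

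As a description of the values that chose it, the difference of MEF2D between lens 1 to 4 and control was 0.75 (SE 0.17) on the log2(CPM + 1) scale, or 1.68-fold. It was the 70th largest rise of the 11005 genes, with LOC107054076 (0.75) just ahead of it and NR1D1_1 (0.75) just behind. Lens values wholly above the controls occurred in 776 of the 11005 genes (7.05%) in these libraries. Over all 7 lens libraries the difference was 0.39 (SE 0.20), again untested because it contains the libraries that chose the gene. With the W-linked split as a term the difference for lens 1 to 4 stayed at 0.75, and it was 0.62 without lens 4 and 0.65 without control 10. In bulk tissue, more RNA per cell and more cells of a type that expresses the gene cannot be told apart. Summed bipolar cell markers (4 of 5 with a row) were 374 to 413 CPM in lens 1 to 4 and 345 to 378 CPM in control, and 1 of the 4 tested passed as higher: VSX1, at 82.2 ± 7.89 CPM in lens 1 to 4 and 58.1 ± 4.48 CPM in control (0.49, limma adjusted p = 0.00163). Summed Mueller glia markers (4 of 4) were 993 to 1193 CPM in lens 1 to 4 and 858 to 1058 CPM in control, with 0 of 4 passing. Amacrine and horizontal cell markers (7 of 7) summed to 454 to 532 CPM in lens 1 to 4 and 451 to 494 CPM in control, with 0 of 7 passing. Ganglion cell markers (6 of 6) summed to 136 to 175 CPM in lens 1 to 4 and 145 to 174 CPM in control, and 1 of 6 passed as higher, RBPMS2 (0.47, limma adjusted p = 0.0445). As background, 9.4% of all tested genes passed as higher in lens 1 to 4 and 4.05% as lower. None of 8 tested cone and rod markers passed. The part of these cells in the values of MEF2D was not tested.

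Lens 12 to 14 played no part in the choice of MEF2D, although the controls they are set against did. There the difference was -0.08 (SE 0.18, 95% interval -0.48 to 0.31), with a limma adjusted p of 0.995 and an exact permutation p of 0.683, two-sided. The smallest p that 3 against 7 libraries allow in that permutation test is 0.0167. As a ratio the interval ran from 0.719 to 1.24. Whether both lens sets differ from each other was not tested, because values of lens 1 to 4 chose the gene.

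MEF2D also varied widely among the controls themselves. Its SD there was 0.33 on the log2 scale, against a median of 0.14 over all tested genes, and was larger than that of 94.9% of them. The lowest control was control 10, at 9.50 CPM, followed by control 18 at 12.6 CPM, and the lens libraries 13 and 14 lay close to these. MEF2D averaged 19.3 ± 5.63 CPM with W-linked reads and 17.9 ± 8.11 CPM without them (SD, n = 7 each). The plain difference of 0.15 in mean log2(CPM + 1) is a description only. It contains lens 1 to 4, which chose the gene and of which 3 carried W-linked reads. With lens set as a term in limma the sign turned, to -0.08 (95% interval -0.40 to 0.24, adjusted p = 0.854). A transcript on the opposite strand within the MEF2D locus, LOC107055110, had at most 0.0407 CPM in any library.

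MEF2A, the paralog on chromosome 10 (17440376 to 17518521, plus strand), varied little from library to library. It had 105, 98.7, 92.2 and 99.8 CPM in lens 1, 2, 3 and 4, then 91.1, 94.4 and 93.4 CPM in lens 12, 13 and 14. The controls had a lowest value of 89.4, a median of 94.3 and a highest value of 101 CPM. Lens 1 alone lay above the control range. Its control SD of 0.056 on the log2 scale was smaller than that of all but 3.46% of tested genes. The difference was 0.07 (SE 0.048) in lens 1 to 4, as a description, and -0.02 (95% interval -0.12 to 0.09) in lens 12 to 14, with a limma adjusted p of 0.995 and an exact permutation p of 0.767.

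MEF2C, on chromosome Z (60508107 to 60645114, plus strand), followed the W-linked reads. In birds the female carries a Z and a W chromosome and the male a pair of Z chromosomes, and most Z genes are not fully balanced between the sexes. MEF2C had 63.2, 54.3, 54.7 and 87.8 CPM in lens 1, 2, 3 and 4 and 83.6, 62.3 and 82.1 CPM in lens 12, 13 and 14. The controls had a lowest value of 61.5, a median of 77.5 and a highest value of 92.5 CPM. The low lens values, at 54.3 to 63.2 CPM, were those of lens 1, 2, 3 and 13, the 4 lens libraries with W-linked reads. The controls with W-linked reads, 19, 21 and 23, had 61.5, 66.6 and 67.0 CPM, and the other 4 controls had 77.5 to 92.5 CPM.

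Across all libraries MEF2C averaged 61.4 ± 5.11 CPM with W-linked reads and 85.3 ± 4.81 CPM without them (SD, n = 7 each), and no value of one set reached into the other. Such separation occurred in 3.28% of tested genes. The difference, with lens set as a term, was -0.45 (SE 0.054, 95% interval -0.56 to -0.34), or 0.732-fold, with a limma adjusted p of 1.54e-05. The plain difference of mean log2(CPM + 1), without that term, was -0.47, with an exact permutation p of 0.000583, the smallest that 7 against 7 libraries can give. In the same fit 584 of 11005 genes passed (5.31%), 208 higher (1.89%) and 376 lower (3.42%) with W-linked reads. On chromosome Z, 367 of 552 tested genes passed as lower (66.5%) and 14 as higher, with a median difference of -0.38. On the chromosomes other than Z and W, 9 of 10426 passed as lower (0.0863%), with a median of 0.04. MEF2C held the 222nd lowest place on chromosome Z, near the middle of that chromosome's genes.

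**Figure D2:**
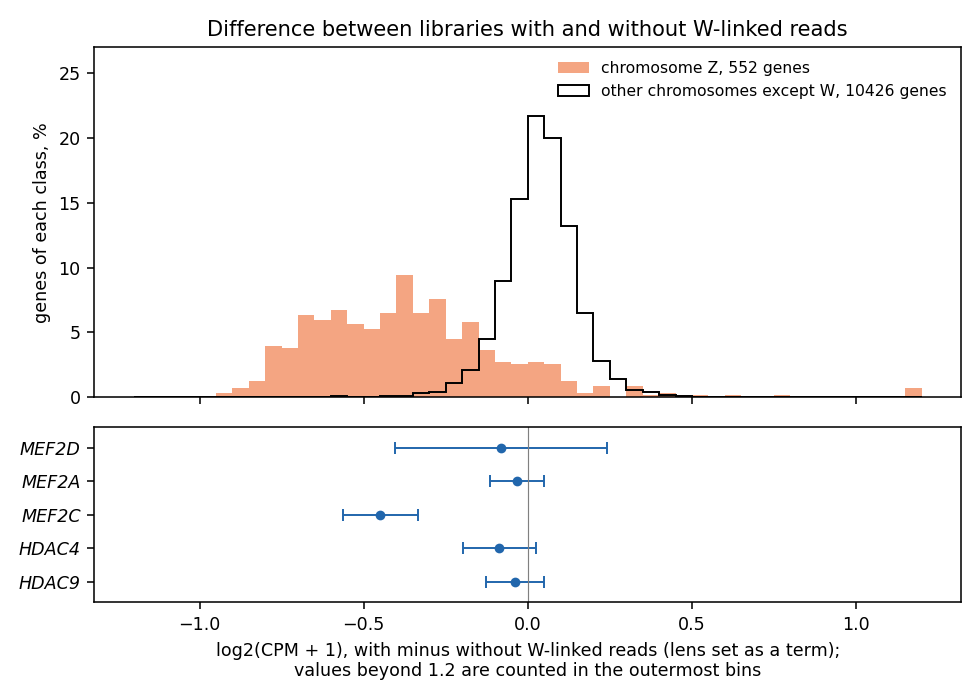
Upper panel, share of genes by their log2(CPM + 1) difference, with minus without W-linked reads, for 552 genes of chromosome Z (filled) and 10426 genes of chromosomes other than Z and W (line); lower panel, the same difference for the 5 genes with its 95% interval from limma. MEF2C, at -0.45, lies within the range of chromosome Z, and the intervals of the other 4 genes include 0.

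The other 4 genes gave smaller differences on this split, and none passed in limma. Beside MEF2D, they were -0.03 for MEF2A (adjusted p = 0.748), -0.09 for HDAC4 (adjusted p = 0.436) and -0.04 for HDAC9 (adjusted p = 0.699). The split also bears on the lens comparison of MEF2C, since 3 of 4 libraries in lens 1 to 4 carried W-linked reads and 3 of 7 in control. MEF2C averaged 65.0 ± 15.8 CPM in lens 1 to 4 (SD, n = 4) and 77.0 ± 12.2 CPM in control (SD, n = 7), a difference of -0.25 (SE 0.14) that was -0.11 with the split as a term. In lens 12 to 14 the mean was 76.0 ± 11.9 CPM (SD, n = 3), and the difference was -0.02 (95% interval -0.30 to 0.27; limma adjusted p = 0.995, exact permutation p = 0.867). An antisense lncRNA that overlaps MEF2C, LOC101752071, had 1.73 to 3.77 CPM. No source used here says that the authors' counting used strand, so reads of both cannot be told apart.

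HDAC4, the first of the MEF2-binding deacetylases (chromosome 7, 6211438 to 6434459, minus strand), spanned 55.8 to 72.2 CPM over the 14 libraries, with lens 4 apart from the rest. It had 61.4, 59.2, 55.8 and 72.2 CPM in lens 1, 2, 3 and 4 and 61.7, 56.5 and 61.8 CPM in lens 12, 13 and 14. The controls had a lowest value of 56.4, a median of 61.5 and a highest value of 65.4 CPM. Lens 4 was the highest of all 14 libraries, and lens 3 the lowest. The difference for lens 1 to 4 was 0.0082, and its direction turned without lens 4 (-0.065). In lens 12 to 14 it was -0.04 (95% interval -0.16 to 0.08), with a limma adjusted p of 0.990 and an exact permutation p of 0.533.

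HDAC9, another MEF2-binding deacetylase (chromosome 2, 29076506 to 29525064, plus strand), lay below the control median in every lens library and did not pass the adjusted test. It had 89.9, 91.8, 87.0 and 97.9 CPM in lens 1, 2, 3 and 4 and 91.5, 90.1 and 87.2 CPM in lens 12, 13 and 14. The controls had a lowest value of 91.2, a median of 99.1 and a highest value of 107 CPM. Lens and control values overlapped. How many other genes lay below the control median in every lens library was not counted. In lens 12 to 14 the mean was 89.6 ± 2.24 CPM (SD, n = 3), against 98.9 ± 4.86 CPM in control (SD, n = 7). That difference of -0.14 (SE 0.052, 95% interval -0.25 to -0.03) had an unadjusted limma p of 0.0180 and an adjusted p of 0.942. The exact permutation p was 0.0333, and 571 of 11005 genes (5.19%) had an unadjusted limma p under 0.05 in this comparison. All of lens 12 to 14 had more total reads (40.4 to 49.3 M) than any control (27.7 to 40.2 M). The part of depth in this difference was not tested. For lens 1 to 4 the difference was -0.11 (SE 0.050), and over all 7 lens libraries -0.12 (SE 0.041), both as descriptions against the same controls.

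Across many genes the lens sets gave unlike counts. In lens 1 to 4, limma called 1480 of 11005 genes (13.4%), of which 1034 were higher (9.4%) and 446 lower (4.05%), and the count was 869, 911 and 724 without lens 1, 2 and 3. That split depends on scaling, with 678 higher of 1476 calls under median-of-ratios scaling, 667 of 1485 under TMM and 773 of 1523 under quantile scaling. In lens 12 to 14, limma called 0 genes (0.0%), none of the 5 genes above among them, with 571 at an unadjusted p under 0.05, and exact rank-sum tests, whose p cannot go below 0.0167 there, called 0. Over all 7 lens libraries limma called 0 (0.0%), with 1619 at an unadjusted p under 0.05 (14.7%), and rank-sum tests, with a smallest possible p of 0.000583, called 0.

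The 8 genes most like it, by Pearson's r of log2(CPM + 1) over the 14 libraries, were CASZ1 (r = 0.96), PRNP (0.96), PITPNM2 (0.96), IGSF9B (0.94), MYT1 (0.94), SETD2 (0.94), EP300 (0.93) and MEGF9 (0.93). CASZ1 and MYT1 encode zinc finger transcription factors, PRNP the prion protein, PITPNM2 a phosphatidylinositol transfer protein, SETD2 a histone methyltransferase and EP300 a histone acetyltransferase that binds MEF2 proteins. Over the 10 libraries other than lens 1 to 4, the r of these 8 genes with MEF2D was 0.78 to 0.89, a value that their choice over all 14 libraries partly fixes. CASZ1, the nearest, averaged 39.9 CPM in lens 1 to 4, 27.9 CPM in lens 12 to 14 and 29.8 CPM in control.

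Likeness is a description here, over libraries whose depth and sets differ. An r of at least 0.8 with MEF2D over the 14 libraries was reached by 236 genes (2.14%), against 239 for MEF2C, 7 for MEF2A, 6 for HDAC4 and 9 for HDAC9. Over the 10 libraries other than lens 1 to 4 the counts were 236 for MEF2D, 303 for MEF2C, 10 for MEF2A, 56 for HDAC4 and 52 for HDAC9. The total reads of a library had an r of -0.07 with MEF2D over the 14 libraries and -0.24 over the 10. With HDAC9 they had an r of -0.35 and -0.46, and with MEF2A, MEF2C and HDAC4 0.13, 0.11 and 0.10 over the 14. For MEF2C, all 8 nearest genes lay on chromosome Z, with r from 0.96 to 0.97. Among the 5 genes themselves, the highest r over the 14 libraries was 0.57, between MEF2D and MEF2A, and over the 10 libraries other than lens 1 to 4 that pair had an r of 0.11. The highest over those 10 was 0.56, between MEF2A and MEF2C, which had 0.12 over the 14. Over the 14, MEF2D and MEF2C had an r of -0.11, MEF2D and HDAC4 0.32, and MEF2D and HDAC9 -0.16. MEF2C there had an r of 0.42 with HDAC4 and 0.43 with HDAC9. Over the 10 libraries other than lens 1 to 4, MEF2C had an r of 0.02 with HDAC4 and 0.14 with HDAC9. MEF2D over those 10 had an r of 0.14 with MEF2C, 0.05 with HDAC4 and 0.05 with HDAC9.

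**Figure D3:**
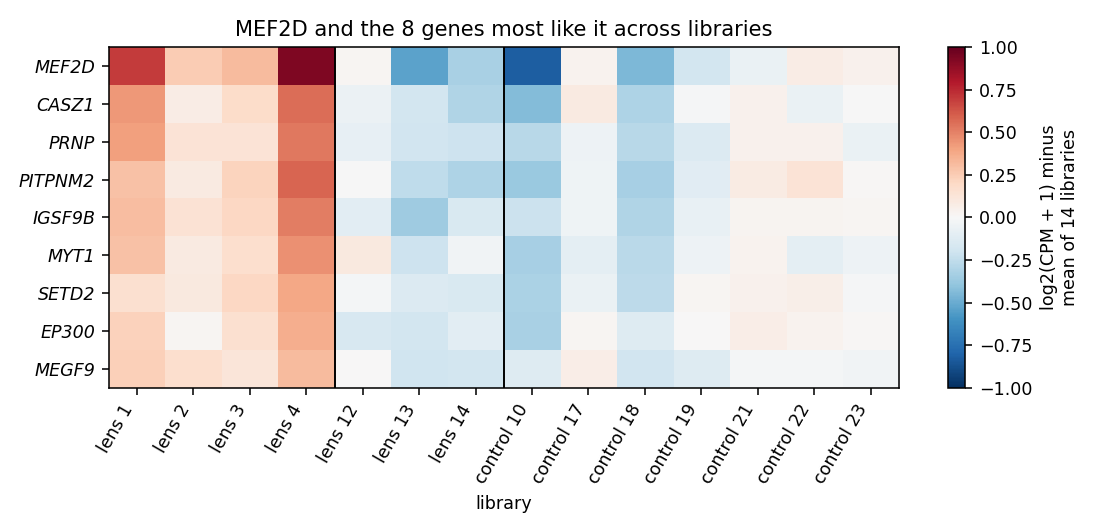
Colour shows each gene's log2(CPM + 1) in each library minus its mean over the 14 libraries (red above, blue below), for MEF2D (top row) and the 8 genes most like it; libraries run from lens 1 to 4 through lens 12 to 14 to control. Lens 1 and 4 are the most red, and lens 13, control 10 and control 18 are blue in every row.

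Other genes of the pathway were taken from 5 lists: remaining MEF2 and deacetylase genes, kinases and phosphatase, co-regulators, described MEF2 targets, and photoreceptor genes. These lists were chosen with earlier results of these data known. Their shares and p-values in lens 1 to 4 are therefore no independent evidence of a MEF2 response. Of the remaining MEF2 and deacetylase genes, 9 of 11 could be tested. MEF2B, the fourth MEF2 paralog, stayed under the filter with at most 0.117 CPM in any library, and HDAC7, the other class IIa deacetylase, had 1.36 to 2.29 CPM. In lens 1 to 4, 0 of the 9 rose and 1 fell (11.1% called, against 13.4% of all tested genes). It was HDAC1, a class I deacetylase, at 33.5 ± 3.07 CPM in lens 1 to 4 and 40.9 ± 4.43 CPM in control, a difference of -0.28 (SE 0.085, limma adjusted p = 0.0425). That call was lost without lens 2, 3 or 4, or without control 17, 18, 19, 22 or 23, with the title letter as a term and with no filter, and HDAC1 passed in 13 of 23 alternative limma settings. The list's median was 0.01, against 0.04 over all tested genes.

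Of the kinase and phosphatase genes, 30 of 35 could be tested, and 5 rose and 0 fell in lens 1 to 4. That is 16.7% called, near the 13.4% of all tested genes, of which 9.4% were higher, and the median of 0.07 stood beside 0.04 over all tested genes. PRKACB, a catalytic subunit of protein kinase A, had 76.1 ± 5.02 CPM in lens 1 to 4 and 63.2 ± 1.57 CPM in control. It was higher in 4 of 4 libraries than in any control, as were 7.05% of tested genes. Its difference was 0.26 (SE 0.049, limma adjusted p = 0.00518), and it passed in all 23 alternative limma settings. PPP3CA, a catalytic subunit of calcineurin, had 49.1 ± 3.21 CPM in lens 1 to 4 and 42.1 ± 1.93 CPM in control (0.21, limma adjusted p = 0.0220), and PPP3CC, another catalytic subunit, also rose (0.32, limma adjusted p = 0.0406). The third catalytic subunit on the list, PPP3CB, had 46.8 ± 1.27 CPM in lens 1 to 4 and 43.3 ± 1.46 CPM in control and did not pass (0.11, limma adjusted p = 0.118). CAMK1G, a calcium and calmodulin dependent kinase, rose by 0.45 (limma adjusted p = 0.0365), and MAPK11, a p38 kinase, by 0.27 (limma adjusted p = 0.0417). The count of 5 became 2 higher and 2 lower under median-of-ratios or TMM scaling and 2 in all without any 1 of lens 1, 2, 3 and 4 or without control 18 or 22. It was 3 without control 10, 17 or 19, under quantile scaling or with the W-linked split as a term, and 2 with no filter. CAMK1G passed in 10 of 23 alternative limma settings and PPP3CC in 11, and MAPK11 in 9 of the 22 that hold it. PPP3CA lost its call under median-of-ratios and TMM scaling and without lens 2 or 4.

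Co-regulators and binding partners gave 8 calls among 26 tested of 35, with 6 higher and 2 lower in lens 1 to 4 (3 and 3 under median-of-ratios or TMM scaling). That is 30.8% called, beside 13.4% of all tested genes (9.4% higher, 4.05% lower), and the median was 0.04, as over all tested genes. YWHAG, an adaptor that binds phosphorylated class IIa deacetylases, had 121 ± 9.35 CPM in lens 1 to 4 and 94.6 ± 3.92 CPM in control. It lay above every control in 4 of 4 libraries, as did 7.05% of tested genes. Its difference was 0.35 (SE 0.054, limma adjusted p = 0.00213). YWHAZ, of the same family, rose by 0.19 (limma adjusted p = 0.0160), a call lost under median-of-ratios and TMM scaling and without lens 2. YWHAE also rose (0.23, limma adjusted p = 0.0465) and passed in 9 of 23 alternative limma settings. YWHAB (0.02), YWHAQ (0.02) and YWHAH (-0.13) did not pass. CTBP1, a transcriptional co-repressor, fell to 39.2 ± 2.02 CPM in lens 1 to 4, against 47.6 ± 1.38 CPM in control, below every control in 4 of 4 libraries, as were 2.73% of tested genes (-0.28, SE 0.048, limma adjusted p = 0.00397). NCOA2, a nuclear receptor coactivator, fell by 0.36 (limma adjusted p = 0.0168), a call lost without lens 1, 2 or 3. EP300, which followed MEF2D over libraries, had 45.1 ± 4.62 CPM in lens 1 to 4 and 38.1 ± 3.51 CPM in control and did not pass (0.24, limma adjusted p = 0.0642). YWHAG and CTBP1 passed in all 23 alternative limma settings, and the count of 8 became 4 without lens 1 and 5 without lens 2 or 3.

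Genes described as MEF2 targets in neurons or muscle of other species gave 5 calls among 22 tested of 36, with 2 higher and 3 lower in lens 1 to 4. That is 22.7% called, beside 13.4% of all tested genes (9.4% higher, 4.05% lower), and the median was -0.07, against 0.04 over all. PDK4, a kinase that restrains entry of pyruvate into the citric acid cycle, gave the largest difference of these lists. It had 44.4 ± 5.08 CPM in lens 1 to 4 and 20.7 ± 4.18 CPM in control. Its lens values of 38.6 to 49.2 CPM all lay above the highest control at 27.3 CPM, as in 7.05% of tested genes. The difference was 1.08 (SE 0.13, limma adjusted p = 0.000576), and it stayed between 0.95 and 1.14 over 23 alternative limma settings. KLF9, a zinc finger factor, rose by 0.25 (limma adjusted p = 0.0193), a call lost under median-of-ratios and TMM scaling and without lens 1. ATF3, a stress-induced transcription factor, fell by 0.46 (limma adjusted p = 0.00867) at 3.29 to 4.19 CPM in lens 1 to 4 and 4.84 to 6.70 CPM in control. KCNA4, a potassium channel subunit, fell by 0.28 (limma adjusted p = 0.0283), lost without lens 3 or 4 or control 22. NAMPT, an enzyme of NAD synthesis, fell by 0.19 (limma adjusted p = 0.0470) and passed in 11 of 23 alternative settings. The count of 5 became 3 without lens 1, lens 3 or control 22.

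Photoreceptor genes gave 5 calls among 32 tested of 37, with 1 higher and 4 lower in lens 1 to 4. That is 15.6% called, near the 13.4% of all tested genes (9.4% higher, 4.05% lower), with a median of 0.01 against 0.04 over all. KCNV2, a potassium channel subunit of photoreceptors, fell to 11.7 ± 1.03 CPM in lens 1 to 4, against 18.1 ± 2.64 CPM in control (-0.59, SE 0.10, limma adjusted p = 0.00364). It lies on chromosome Z, and its difference was -0.50 with the W-linked split as a term. OTX2, a homeobox factor of photoreceptor and bipolar cells, rose to 31.1 ± 3.18 CPM in lens 1 to 4, against 24.6 ± 2.45 CPM in control (0.33, SE 0.082, limma adjusted p = 0.0197). NR2E3, a rod nuclear receptor, fell by 0.53 (limma adjusted p = 0.0294) at a low level, with 1.19 ± 0.582 CPM in lens 1 to 4 and 2.10 ± 0.346 CPM in control, and lost its call with no filter and without lens 1, 2 or 3 or control 17, 19 or 22. Its difference was -0.87 with a pseudocount of 0.1 and -0.20 with one of 5. RORB, an orphan nuclear receptor on chromosome Z, fell by 0.32 (limma adjusted p = 0.0404), and IMPG2, a proteoglycan of the matrix around photoreceptors, by 0.16 (limma adjusted p = 0.0490). With the W-linked split as a term the difference of RORB was -0.22. RORB passed in 14 and IMPG2 in 11 of 23 alternative settings. The count of 5 became 2 without lens 2, lens 3, control 17 or control 22 and 3 without lens 1 or control 19 or with no filter. Of the 24 calls over the 5 lists, 7 passed in all 23 alternative limma settings: PDK4, YWHAG, CTBP1, PRKACB, KCNV2, OTX2 and ATF3. These settings reuse the same libraries, and the lists were chosen with earlier results known. Passing in all of them is therefore no independent evidence. None of the 24 passed in exact rank-sum tests, which called 0 of 11005 genes in this comparison, where 4 against 7 libraries allow no p below 0.00606.

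**Figure D4:**
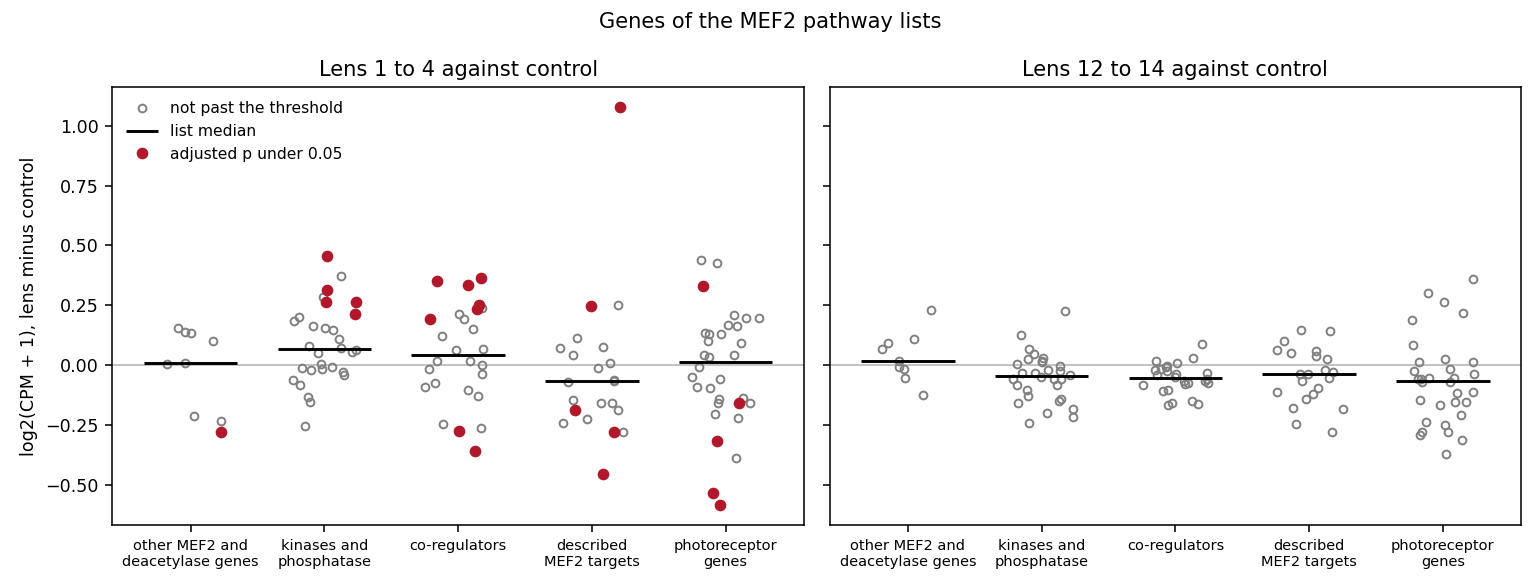
Each point is a tested gene of the 5 lists, placed at its log2(CPM + 1) difference, lens minus control, for lens 1 to 4 (left panel) and lens 12 to 14 (right panel); red points passed an adjusted p of 0.05 in limma and black bars are list medians. PDK4 stands alone at 1.08 among the described MEF2 targets in lens 1 to 4, and no point is red for lens 12 to 14.

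In lens 12 to 14, 0 genes of any list passed in limma. At an unadjusted p under 0.05 were 0 of 9 remaining MEF2 and deacetylase genes, 3 of 30 kinase and phosphatase genes, 1 of 26 co-regulators, 2 of 22 described targets and 8 of 32 photoreceptor genes, beside 571 of all 11005 genes (5.19%). Rank-sum tests called 0 of all genes there, where 3 against 7 libraries allow no p below 0.0167. The smallest p of each list belonged to HDAC11 (0.23, limma adjusted p = 0.970), CAMK1D (-0.24, 0.942), NCOA2 (-0.16, 0.942), BDNF (-0.28, 0.942) and ARR3 (-0.37, 0.922), and the next to HDAC1 (-0.12, 0.981), PRKACB (0.12, 0.942), RCAN2 (-0.16, 0.956), NR4A3 (-0.24, 0.942) and GUCA1B (0.30, 0.938). PDK4 had 22.8 ± 3.74 CPM in lens 12 to 14 and 20.7 ± 4.18 CPM in control (0.15, limma adjusted p = 0.981), and YWHAG 94.2 ± 7.19 CPM in lens 12 to 14 and 94.6 ± 3.92 CPM in control (-0.0069, limma adjusted p = 0.995). The difference between both lens sets was not tested for these genes.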

How the data were processed

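Retinal total RNA was sequenced after ribosomal RNA depletion (stranded kit), per the labels' protocols. STAR, Partek and the build GRCg6a are named in the submitters' processing notes, with no role or version. The authors deposited 1 table, read here as CPM from its values: less a constant of 0.0001, 94.0% to 95.3% of low values (up to 20 reads) were whole multiples of 1 step per library, within 0.05 steps. That share was too low for a count model. The table held 0 columns of other series. CPM is not divided by length, so levels were not compared between genes.

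Tests used log2(CPM + 1). A mean of 1 CPM or more was reached by 11005 genes, which were tested, and 7626 fell below it. Fold changes on this scale understate low genes. Only the groups compared entered each fit by limma 3.58.1 in R 4.3.3 (mean-variance trend, two-sided, Benjamini-Hochberg over all tested genes, adjusted p under 0.05), which was tested on simulated data. Exact permutation tests compared means of log2(CPM + 1) over libraries with no other term. The split by W-linked reads kept lens set as a term. Chromosome names came from RefSeq gene names (15419 symbols matched, GRCg7b, names only), and coordinates from the table.

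Members and lists were chosen with earlier results of these data known. All members are named. From each list, at most the 4 called genes of smallest p are given, every call where there were 5 or fewer, and the 2 of smallest p where there was none. EP300, PPP3CB, YWHAE, YWHAB, YWHAQ and YWHAH in their lists, and PDK4 and YWHAG in lens 12 to 14, were named after their values were seen. Alternatives were other pseudocounts, filters, scalings, covariates, weights, a joint fit, rank-sum tests and leaving out each library.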

Additional observations from a re-analysis of the deposited data

Results flagged for a closer look

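HDAC4 had 72.2 CPM in lens 4, while the other 6 lens libraries held 55.8 to 61.8 CPM, a gap that is wide for the range of this group. It was the only such value among 15 groups of the 5 genes that were examined, and chance alone marks about 5% of groups. Lens 4 was also the highest library for MEF2D, at 34.6 CPM, and carried the highest summed pigment epithelium markers, at 8.03 CPM.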

How the results depend on the processing

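Members were tested in lens 12 to 14 and on the W-linked split, and only MEF2C on that split had a call to lose. Limma called 0 of all tested genes in lens 12 to 14, so an unchanged call there shows little. Of 240 alternative values for members in these comparisons, 230 kept direction and call. The other 10 turned round, all without a call: for lens 12 to 14, MEF2C gave 0.037 with array weights and -0.089 to 0.12 when single libraries were left out, MEF2D -0.23 to 0.043, HDAC4 -0.059 to 0.0057 and MEF2A -0.028 to 0.0020. On the W-linked split, MEF2D gave 0.15 in rank-sum tests, which carry no lens-set term, and -0.20 to 0.053 when libraries were left out. The cause of the others was not tested. MEF2C on that split stayed at -0.48 to -0.40 over 25 settings (adjusted p 3.20e-06 to 0.0178), and HDAC9 in lens 12 to 14 at -0.16 to -0.12 over 23 (adjusted p 0.498 to 1.00). MEF2D in lens 1 to 4 gave 0.61 to 0.85 over 24 settings.

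Counts of calls moved more. Lens 1 to 4 gave 0 in rank-sum tests (2770 unadjusted) and 724 to 1636 when libraries were left out, with 869, 911 and 724 without lens 1, 2 and 3. Lens 12 to 14 gave 1 with array weights and 0 to 2 when libraries were left out (2 without control 19). All lens libraries gave 220 in a joint fit of the 3 sets, 16 with array weights and 0 to 15 when libraries were left out (15 without lens 14). The W-linked split gave 456 to 613. Calls within the lists in lens 1 to 4 ranged, when libraries were left out, over 0 to 1 (other MEF2 and deacetylases), 2 to 5 (kinases and phosphatase), 4 to 8 (co-regulators), 3 to 5 (described targets) and 2 to 6 (photoreceptor genes).

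No paired analysis was possible because lens and control libraries share no replicate number. Depth limits genes near 1 CPM, such as NR2E3 and HDAC7, most.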

Other observations

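Genes of the pathway lists were also compared by the W-linked reads, which the rule that chose MEF2D did not use. The lists themselves were chosen with earlier results of these data known. With against without W-linked reads, limma passed 1 of 26 co-regulators, 1 of 22 described targets and 4 of 32 photoreceptor genes, against 5.31% of all tested genes. ANKRA2, whose protein binds class IIa deacetylases, had 10.8 to 13.04 CPM with W-linked reads and 18.07 to 20.51 CPM without them (-0.66, limma adjusted p = 3.09e-07). HOMER1, a scaffold of the postsynaptic density, had 73.5 to 86.6 CPM with W-linked reads and 93.6 to 103.7 CPM without them (-0.26, limma adjusted p = 0.000149). Values that do not overlap on this split occurred in 3.28% of tested genes. RORB (-0.35, limma adjusted p = 2.17e-05), PDE6B (-0.40, 0.00101) and KCNV2 (-0.27, 0.00831) were lower as well with W-linked reads. Like ANKRA2, HOMER1 and MEF2C they lie on chromosome Z, where 66.5% of tested genes passed as lower. CNGA1, a rod channel subunit on chromosome 4, was higher with W-linked reads (0.39, limma adjusted p = 0.00437).

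Of the remaining MEF2 and deacetylase genes, 2 of 9 passed, HDAC11 (0.30, limma adjusted p = 0.0416) and SIRT1 (0.24, limma adjusted p = 0.0442), both higher with W-linked reads. Neither passed under median-of-ratios, TMM or quantile scaling, with array weights or without a filter, where the count was 0, and the count ran from 0 to 2 when single libraries were left out. None of the 30 kinase and phosphatase genes passed in limma, with 3 at an unadjusted p under 0.05, as had 16.8% of all tested genes.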
